A study of Mus musculus with 33 samples.

Results

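The 10 genes described here encode heat shock proteins: Hspa1a, Hspa1b, Hspa5, Hspa8, Hsp90aa1, Hsp90ab1, Hsph1, Dnajb1, Hspb1 and Hspd1. They were taken as a named list from 54146 annotated mouse genes, chosen with earlier results of these data known. All 10 were found in the count tables. Hspa1a and Hspa1b are near-identical copies, so their sum is reported beside each copy. The genes were followed in 33 RNA-seq libraries of microglia, the resident macrophages of the brain, that had been sorted from single brains of C57BL/6 mice.

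The libraries form 10 groups. One 3-month experiment holds WT (4 libraries) and IRF8KO mice (4), which lack IRF8, a transcription factor of the macrophage lineage. At 9 months there are 3 libraries each of WT, IRF8KO, 5xFAD and 5xFAD/IRF8KO mice, where 5xFAD is a model of amyloid deposition whose transgenes act in neurons. A second 3-month experiment holds WT (3) and Batf3-/- mice (3, called Batf3KO below), which lack a transcription factor known from dendritic cells. The last 3-month experiment holds mice with a floxed Irf8 gene, either alone (flox, 3) or with Cx3cr1CreERT2 (Cre, 4), a tamoxifen-dependent recombinase driven from the Cx3cr1 gene, which microglia and other mononuclear phagocytes express. Mice of the flox and Cre groups both received tamoxifen on 5 consecutive days from postnatal day 12, and the design text describes sorting of YFP-positive cells. All mice are labelled female, yet 16 libraries carried Y-linked transcripts, all of them in the 3-month IRF8KO experiment and the 9-month groups.

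Heat shock proteins are chaperones: they bind unfolded proteins, help them fold, and pass damaged ones on for degradation. Proteins of the HSP70 family (Hspa1a, Hspa1b, Hspa8, Hspa5) work through cycles of ATP hydrolysis that J-domain proteins such as Dnajb1 start and nucleotide exchange factors such as Hsph1 reset, and HSP90 proteins (Hsp90aa1, Hsp90ab1) finish the folding of kinases and receptors. Stress in the cytosol releases the transcription factor HSF1, which binds heat shock elements and induces Hspa1a and Hspa1b strongly, whereas stress in the endoplasmic reticulum (ER) induces Hspa5 through its own element. In microglia these genes are also known to respond to the isolation of the cells.

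Promoter sequences are printed because both kinds of element can be read in them. RefSeq's promoter table (GRCm38.p6) held 7 of the 10 genes, without Hspa8, Hsp90aa1 and Hsp90ab1. In the 250 bases before RefSeq's start, on the gene's strand, Hspa1a and Hspa1b differed at 3 positions. Capitals mark a heat shock element of 2 units, GAANNTTC or TTCNNGAA. Hspa1a lies at chr17:34969190-34972156 and its window at chr17:34972157-34972406, and Hspa1b lies at chr17:34956436-34959238 with its window at chr17:34959239-34959488, all on the minus strand.
Hspa1a: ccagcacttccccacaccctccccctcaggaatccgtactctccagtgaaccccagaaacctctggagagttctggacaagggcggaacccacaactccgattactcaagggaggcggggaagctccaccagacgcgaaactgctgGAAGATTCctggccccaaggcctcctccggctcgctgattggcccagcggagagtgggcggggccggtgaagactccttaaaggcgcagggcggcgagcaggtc
Hspa1b: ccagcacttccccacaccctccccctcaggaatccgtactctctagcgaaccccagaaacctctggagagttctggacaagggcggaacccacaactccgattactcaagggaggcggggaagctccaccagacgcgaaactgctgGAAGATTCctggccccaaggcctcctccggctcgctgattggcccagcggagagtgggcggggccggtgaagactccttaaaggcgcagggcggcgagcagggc
Both copies hold the match 104 to 97 bases before the start.

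Sites of 30 bases around the matches of 3 other members follow, with the matched bases in capitals. They lie at chr5:149636351-149636380 (minus strand) for Hsph1, at chr5:135887791-135887820 and chr5:135887811-135887840 (plus strand) for Hspb1, and at chr2:34772020-34772049 (plus strand) for Hspa5, where the capitals mark an ER stress element.
Hsph1: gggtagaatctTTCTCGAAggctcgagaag
Hspb1, first site: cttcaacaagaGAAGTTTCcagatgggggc
Hspb1, second site: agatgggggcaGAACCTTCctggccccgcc
Hspa5: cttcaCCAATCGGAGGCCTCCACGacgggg
The element of 2 units was present in 4 of the 7 windows and in 12.8% of 32817 RefSeq promoter windows of the same length, searched on both strands. The ER stress element, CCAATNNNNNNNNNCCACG, was present in the Hspa5 window and in 0.113% of all windows. A longer heat shock element of 3 units (the shorter one followed by NNGAA or NNTTC, so that units alternate) was found in 0 of the 7 windows and in 0.466% of all. Dnajb1 and Hspd1 had no match in these windows. RefSeq's starts of Hspa5 and Hsph1 lie inside the gene spans given below, which come from GENCODE M21. The Hspa5 site and most of the Hsph1 site therefore fall within those spans.

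Levels are given in CPM, gene counts divided by library size, scaled over all 33 libraries by the TMM method, and comparisons of levels between genes use CPM per kilobase of exon. Per kilobase, Hspa5 (chr2:34771970-34777547), the ER chaperone also called BiP, ranked first among the 10 genes in 17 libraries. Hsp90ab1 (chr17:45567775-45573271), the constitutive HSP90, ranked first in the other 16. Hspa8 (chr9:40800984-40810087), the constitutive cytosolic HSP70, was among the first 3 in 31 libraries, and Hspb1 (chr5:135887919-135889563), a small heat shock protein that holds unfolded proteins without ATP, had the lowest median. Median levels over the 33 libraries were 183 CPM per kilobase for Hsp90ab1, 145 for Hspa5, 107 for Hspa8, 1.05 for Hspa1a and 0.408 for Hspb1. These ranks and medians divide by all annotated exon bases of a gene, 4301 for Hspa8, 4229 for Hspa5 and 2999 for Hsp90ab1. Their longest protein-coding transcripts hold 2394, 3672 and 2520 bases, so the order of these genes depends on the length used.

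The genes differed in how far their group means spread. Hspa8 varied 1.86-fold between its highest and lowest group mean, Hspa5 2.3-fold and Dnajb1 (chr8:83608193-83612653) 2.97-fold. Hsp90ab1 varied 3.06-fold, Hspd1 3.2-fold, Hsph1 (chr5:149614287-149636376) 4.13-fold and Hsp90aa1 (chr12:110690605-110702728), the inducible HSP90, 9.44-fold. The sum of Hspa1a and Hspa1b varied 415-fold, from 0.805 CPM in WT of the Batf3KO experiment to 334 CPM in WT at 9 months, so 2 groups with the same genotype label stood at its ends. Counting reads that map to 1 place limits these levels. Of the 55-base windows of the transcript, 65.4% for Hspa1a, 61% for Hspa1b, 73.7% for Hspa8, 57.4% for Hsp90aa1, 50.8% for Hspb1 and 42.3% for Hspd1 also occur in another gene's transcript, mostly a copy or pseudogene, against 0 for Hspa5 and Hsph1. Reads of both ends are 55 bases long, so the levels of the former genes can be underestimates, and how reads divide between Hspa1a and Hspa1b is uncertain. Hspa1a also shares 564 exon bases, 19% of its exons, with Gm20481 on the opposite strand, and the counts used carry no strand.

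Depth ranged from 605376 to 18357762 gene counts per library and was lowest in the 9-month WT group. The targeted genes were read first. Irf8 stood at 95.4 to 172 CPM in IRF8KO against 241 to 313 CPM in WT at 3 months, and at 14.9 to 126 CPM against 543 to 650 CPM at 9 months. Batf3 stood at 0.482 to 0.575 CPM in Batf3KO against 26.7 to 32.3 CPM in its WT. In the Cre group Irf8 ranged from 337 to 1050 CPM against 905 to 1140 CPM in flox, and the library labelled Cre replicate 1 lay within the flox range. Batf3 stood at 1.79 to 4.21 CPM in flox and 1.22 to 62.1 CPM in Cre, against at least 15.8 CPM in every WT and 5xFAD library. Genes that define homeostatic microglia (a list of 14) took 7.91 to 8.36% of counts in both WT of the Batf3KO experiment and 9-month WT. They took 1.45 to 2.7% in WT of the 3-month IRF8KO experiment and 0.446 to 1.31% in the IRF8KO groups at 3 and 9 months. A list of 15 neutrophil genes took 0.867 to 5.4% of counts in WT and 7.75 to 16.7% in IRF8KO of the 3-month IRF8KO experiment. At 9 months its share was 6.53 to 9.13% in IRF8KO and 8.29 to 14.9% in 5xFAD/IRF8KO. It took at most 0.0112% in every other group. Transcripts of blood cells were thus present in those 4 groups, and in bulk samples fewer cells of a type cannot be told apart from less RNA per cell. The spread between replicates, as edgeR's biological coefficient of variation, was 67.3% in the 3-month IRF8KO experiment, 80.7% in the 9-month groups, 27.3% for flox and Cre and 15% in the Batf3KO experiment.

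Most of the heat shock genes were higher in microglia without Batf3. In the comparison of Batf3KO with its WT at 3 months, 7 of the 10 genes rose and none fell, beside 1.41% of 13128 tested genes called higher in Batf3KO (503 genes, 3.83%, in either direction, and 219 to 596 genes with 1 library left out). Calls here and below are at an adjusted p under 0.05 in edgeR's quasi-likelihood test with Benjamini-Hochberg adjustment over all tested genes. The risers were the 4 genes of the HSP70 family, the exchange factor Hsph1, the J-domain protein Dnajb1 and the constitutive HSP90 Hsp90ab1. Hsp90aa1 and Hspd1 did not pass, and Hspb1, with 3 counts in Batf3KO and 5 in WT, was too low to be tested. The median log2 fold change of the 9 tested genes was 0.89, against 0 over all tested genes.

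Hspa8 stood at 744, 626 and 649 CPM in the 3 Batf3KO libraries and at 362, 367 and 356 CPM in the 3 WT libraries. All Batf3KO values lay above all WT values, and the WT libraries hardly differed among themselves. The log2 fold change was 0.99 (SE 0.0841), with an adjusted p of 1.48e-05, and Batf3KO had the highest mean Hspa8 level of the 10 groups, although its range overlapped that of 5xFAD/IRF8KO. Dnajb1, which starts the ATPase cycle of the HSP70 proteins, stood at 175, 190 and 169 CPM against 95, 116 and 96.9 CPM, a log2 fold change of 0.89 (SE 0.103, adjusted p = 0.000288). Its groups did not overlap either. Hsph1, the exchange factor, stood at 34.4, 34.9 and 32 CPM against 15.1, 19.5 and 13.3 CPM, with a log2 fold change of 1.18 (SE 0.161, adjusted p = 0.00111). Here the WT libraries were the lowest group mean of the study, and Batf3KO only reached the middle of the order.

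The inducible copies moved most in proportion from a very low level. Hspa1b stood at 8.7, 4.27 and 3.64 CPM in Batf3KO and at 0.307, 0.383 and 0.862 CPM in WT. The 3 WT libraries held 4, 5 and 10 reads for it, so the level there was near the limit of detection. The log2 fold change was 3.51 (SE 0.516, adjusted p = 0.00197). For Hspa1a, Batf3KO stood at 3.81, 3.03 and 0.766 CPM and WT at 0.613, 0.0766 and 0.172 CPM, with a log2 fold change of 3.2 (SE 0.749, adjusted p = 0.0314). This call was lost when WT replicate 2 or 3, or Batf3KO replicate 1 or 2, was left out, with adjusted p-values up to 0.8 over the alternatives tried. Their sum stood at 12.5, 7.3 and 4.41 CPM against 0.92, 0.459 and 1.03 CPM, 10.7-fold higher (log2 3.42, SE 0.461, adjusted p = 0.00094). Even so, Batf3KO held only the sixth place of the 10 groups for the sum.

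**Figure D1:**
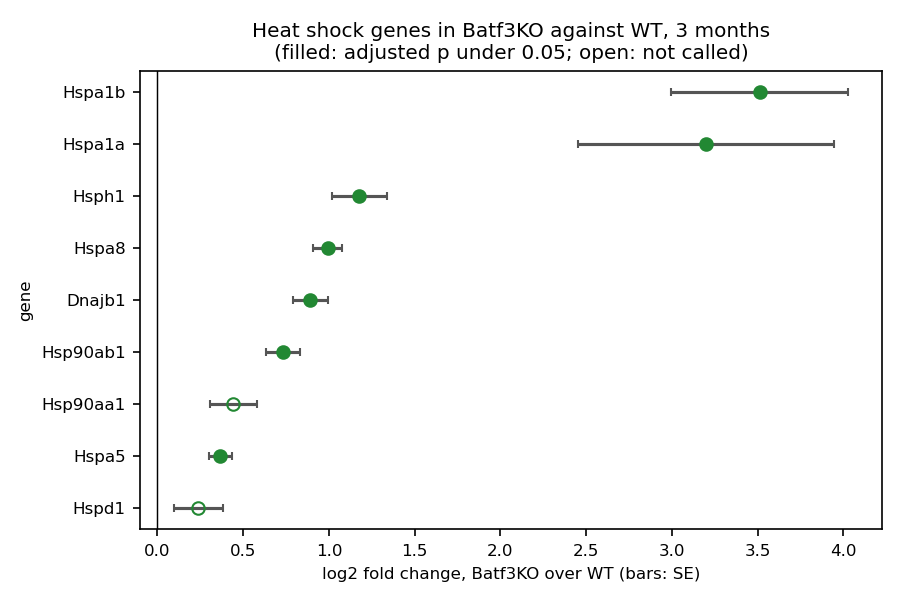
Log2 fold change of the 9 tested heat shock genes in Batf3KO over WT at 3 months (horizontal axis), with bars for the standard error and 3 libraries per group. Filled points passed an adjusted p of 0.05 and open points did not: all 9 lie above 0, with Hspa1b at 3.51 and Hspd1 at 0.24 as the ends.

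Among the abundant genes, Hsp90ab1 stood at 592, 525 and 459 CPM in Batf3KO against 354, 336 and 327 CPM in WT. The groups did not overlap, and the log2 fold change was 0.73 (SE 0.0979, adjusted p = 0.000904). Hsp90aa1 stood at 43.4, 41.2 and 38.4 CPM against 29.9, 31 and 35.6 CPM. Its groups did not overlap, but the log2 fold change of 0.44 (SE 0.137) had an adjusted p of 0.0976. The ER chaperone Hspa5 stood at 909, 851 and 909 CPM against 775, 749 and 689 CPM. That rise was small, with a log2 fold change of 0.37 (SE 0.0659, adjusted p = 0.00732), and leaving out WT replicate 2 or Batf3KO replicate 1 ended the call. Hspd1 (chr1:55077835-55088243), the mitochondrial chaperonin HSP60, stood at 36.8, 32.4 and 28.8 CPM against 29.7, 29.2 and 29.8 CPM. The groups overlapped, and the log2 fold change was 0.24 (SE 0.142, adjusted p = 0.406).

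Other chaperones rose as well. Of 98 listed cochaperones, chaperones and stress factors outside the 10 genes, 90 were tested in this comparison, and 16 rose while 0 fell, again beside 1.41% of all tested genes called higher. Dnaja1, another J-domain partner of HSP70, rose from 30.3 ± 4 to 56.4 ± 8.14 CPM (SD, n = 3 each), a log2 fold change of 0.99 (adjusted p = 0.00309). Chordc1, an HSP90 cochaperone, rose by 0.85 on the log2 scale (adjusted p = 0.0121) and Cacybp by 0.86 (adjusted p = 0.0274). Hspe1, the HSP10 lid of HSP60 that lies head to head with Hspd1, rose from 22 ± 3.44 to 33.3 ± 2.28 CPM (log2 0.69, adjusted p = 0.0279). Among ER genes, Manf rose by 0.62 (adjusted p = 0.00421) and Ddit3, which encodes the stress factor CHOP, by 0.66 (adjusted p = 0.0461). Cct4, a subunit of the cytosolic chaperonin TRiC, rose by 0.41 (adjusted p = 0.0469). The transcript of Hsf1, whose protein is regulated mainly after translation, stood at 160 ± 1.39 against 175 ± 8 CPM, with a log2 fold change of -0.04 (SE 0.0794, adjusted p = 0.85).

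Among immediate early genes, which microglia induce when they are handled, Klf2 rose by 1.88 on the log2 scale (adjusted p = 0.000179), Rhob by 0.44 (adjusted p = 0.0104) and Zfp36 by 0.38 (adjusted p = 0.0198). Together the 24 genes of that list took 0.166 to 0.169% of counts in Batf3KO and 0.147 to 0.161% in WT, and their part in the result was not tested. Homeostatic genes took 7.94 to 8.09% against 8.13 to 8.36%. The neutrophil list stood at 0.000492 to 0.000516% against 0.000189 to 0.000477%, with 8 and 9 of its 15 genes at 0 in every library of the group. Lists of other brain cells took lower shares in Batf3KO. Oligodendrocyte genes took 0.0364 to 0.0432% against 0.0502 to 0.0524%, with 2 of 7 called lower, and neuron genes 0.000528 to 0.000741% against 0.0013 to 0.00168%, with 1 of 6 called lower. Monocyte and border macrophage genes took 0.000721 to 0.000933% against 0.00117 to 0.00162%, with 1 of 4 called lower. Endothelial genes took 0.0042 to 0.00486% against 0.00508 to 0.00637%, with 1 of 4 called lower. None of these shares overlapped between the groups. Beside these counts, 3.83% of all tested genes were called in either direction and 1.41% higher. Astrocyte genes did overlap, at 0.0218 to 0.0234% in Batf3KO against 0.0231 to 0.0255% in WT, with 1 of 8 called lower. So did red blood cell genes, at 0.00315 to 0.0113% against 0.0111 to 0.0239%. The part of these lists in the result was not tested. No member stayed called when all 33 libraries shared 1 estimate of the spread, a model in which 10 genes of the whole transcriptome were called. Nothing in the labels says whether mice of a group came from separate litters or days, so p-values measure only the spread between these libraries.

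At 9 months the pair Hspa1a and Hspa1b was high in WT microglia alone. The sum stood at 679, 170 and 152 CPM in WT, at 2.24, 3.69 and 1.05 CPM in IRF8KO, at 3.29, 1.38 and 4.21 CPM in 5xFAD and at 21.1, 6.28 and 72.6 CPM in 5xFAD/IRF8KO. Every WT library lay above every library of the other 3 groups, and 5xFAD/IRF8KO lay above both IRF8KO and 5xFAD without overlap. In the plot of both copies, the group means at 9 months stood in the same order for each copy except in IRF8KO. There Hspa1a held 19, 27 and 7 reads and Hspa1b 0, 0 and 2.

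**Figure D2:**
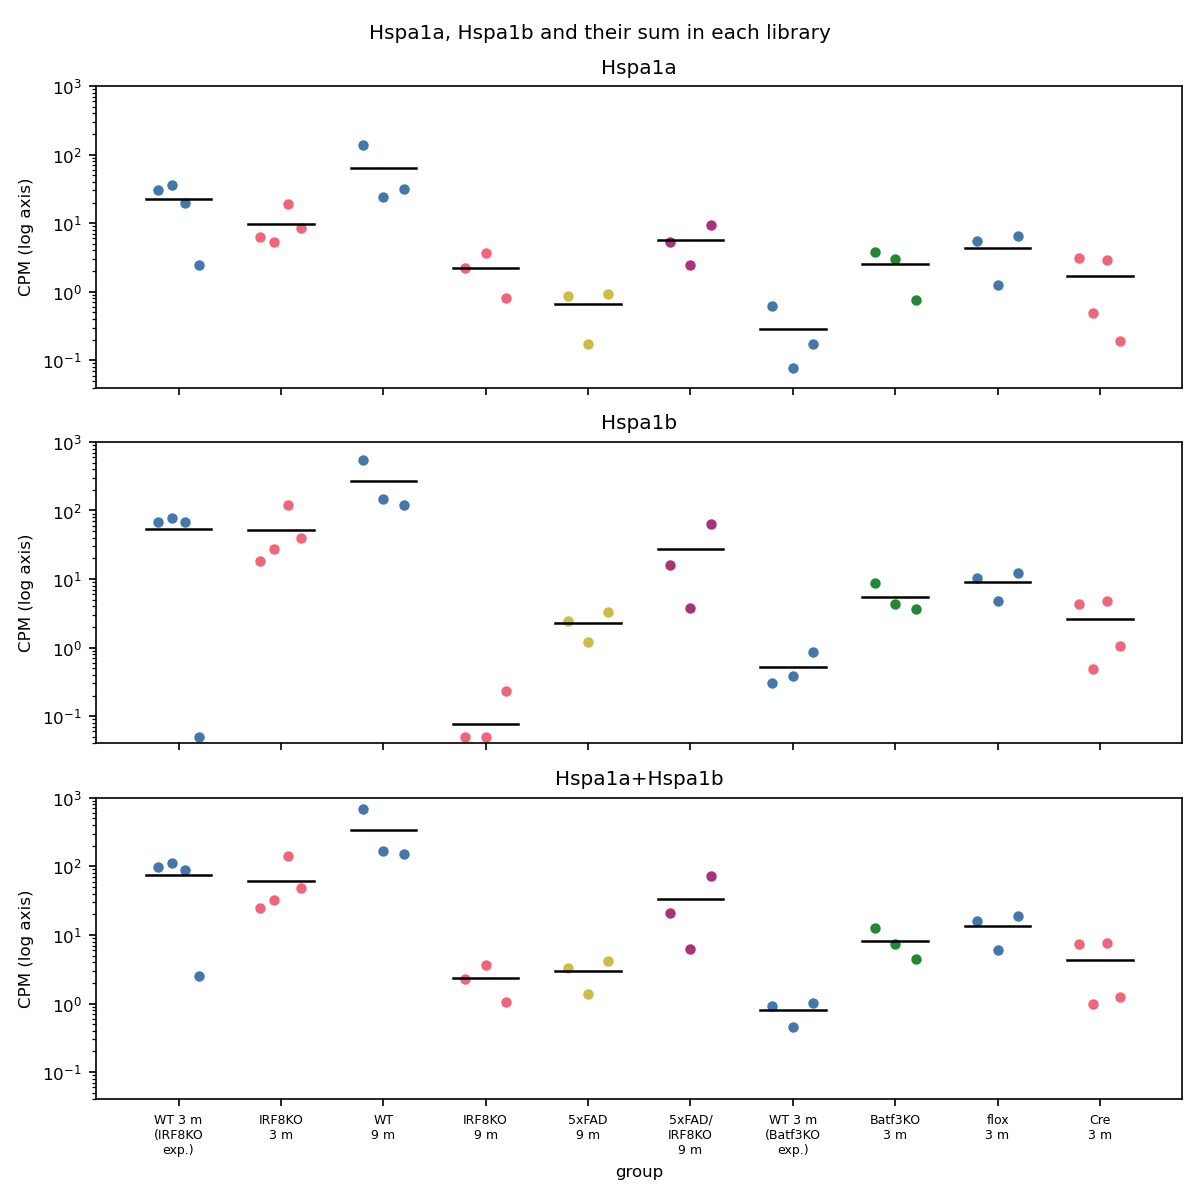
CPM of Hspa1a, Hspa1b and their sum in each of the 33 libraries (points) with group means (bars), on logarithmic axes, where values under 0.05 CPM are drawn at 0.05. The 9-month WT libraries hold the highest sums, from 152 to 679 CPM, and WT of the Batf3KO experiment the lowest, from 0.459 to 1.03 CPM.

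Against WT at 9 months, 3 of the 10 genes were called in IRF8KO, beside 28.3% of 14604 tested genes, a share close to that of the members (4136 genes, and 2266, 2579 and 2727 without WT replicate 1, 2 and 3). The sum of the copies fell, with a log2 fold change of -7.09 (SE 1.05, adjusted p = 0.000382). Hspa1a alone fell by 4.76 (SE 1, adjusted p = 0.00418), and without WT replicate 1 by 3.69 (adjusted p = 0.0502). For Hspa1b, IRF8KO held 2 reads and WT 4126, a ratio of 5070 in CPM with a 95% counting interval of 1400 to 41900 (adjusted p = 0.000132). All 3 calls were lost with limma's quality weights, where the adjusted p reached 0.0863 for the sum. Against WT, 5xFAD had 2 members called, both lower, beside 0.178% of tested genes called lower and 1.99% in either direction (290 genes, 2 to 102 with 1 WT or 5xFAD library left out, and 4546 in a model of these 2 groups alone), and both were the copies: the sum fell by 6.84 (SE 1.05, adjusted p = 0.0142). Leaving out any of WT replicates 1, 2 and 3 or 5xFAD replicates 2 and 3 ended that call, with an adjusted p of at most 0.122, while the log2 fold change stayed between -7.19 and -5.84.

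In the 5xFAD background the direction was the opposite. The sum rose in 5xFAD/IRF8KO over 5xFAD, with a log2 fold change of 3.55 (SE 0.924, adjusted p = 0.0134), a call lost when 5xFAD replicate 1 or 2 or 5xFAD/IRF8KO replicate 3 was left out. The test of this difference, the interaction of the 5xFAD and IRF8KO terms, called Hspa1a (adjusted p = 0.0404), Hspa1b (adjusted p = 0.0107) and their sum (log2 10.65, SE 1.38, adjusted p = 0.0143), beside 0.192% of all tested genes called higher and 0.438% in either direction (64, and 2 to 189 with 1 library left out). Leaving out 5xFAD replicate 2 or 3 ended the call for the sum, and limma's quality weights ended all 3 calls. The call for Hspa1a was lost in 9 of 18 alternatives, among them leaving out any WT or 5xFAD library or 5xFAD/IRF8KO replicate 1, with an adjusted p of at most 0.239. None of the other 8 members was called in the interaction. 5xFAD/IRF8KO against IRF8KO had 1 member called, Hspa1b, with 985 reads against 2, a ratio of 334 (92.2 to 2760, adjusted p = 0.0415), beside 0.123% of tested genes called higher and 0.164% in either direction. That call was lost without any 1 of the IRF8KO libraries, and the sum of the copies in this comparison had an adjusted p of 0.132.

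Some immediate early genes also changed at 9 months, in both directions, and their part in the result was not tested. In IRF8KO against WT, 3 of 24 rose and 5 fell, beside 19.6% of all tested genes called higher and 8.68% called lower. In 5xFAD against WT, 0 rose and 3 fell (Fos, Jun and Dusp1), beside 1.81% of all tested genes called higher and 0.178% called lower. In 5xFAD/IRF8KO against 5xFAD, 7 rose and 3 fell, beside 18% called higher and 9.72% called lower. The share of counts of the 24 immediate early genes was 0.266 to 0.489% in WT. It was 0.132 to 0.204% in the IRF8KO group, while 5xFAD held 0.155 to 0.167% and 5xFAD/IRF8KO 0.152 to 0.254%. Jun stood at 424 ± 242 CPM in WT, 27.7 ± 20.2 CPM in IRF8KO and 46.3 ± 12.8 CPM in 5xFAD (SD, n = 3 each). Against that direction, Fosl2 (log2 3.09), Egr3 (6.93) and Nr4a1 (4.15) rose in IRF8KO over WT. Red blood cell genes took 2.46 to 16.4% of counts in IRF8KO and 1.46 to 9.29% in 5xFAD/IRF8KO, against at most 0.00661% in WT and 5xFAD. Neutrophil genes took at most 0.000496% in WT and 5xFAD. In 5xFAD against WT, no gene of the neutrophil, red blood cell, oligodendrocyte, neuron, astrocyte or endothelial lists was called. Y-linked transcripts were found in 3 of 3 WT, 2 of 3 IRF8KO, 1 of 3 5xFAD and 3 of 3 5xFAD/IRF8KO libraries.

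Hsp90aa1 differed from the copies in IRF8KO against WT, where it rose and they fell, while both rose in 5xFAD/IRF8KO over 5xFAD. It stood at 159, 309 and 445 CPM in IRF8KO, at 195, 150 and 309 CPM in 5xFAD/IRF8KO, at 112, 66.8 and 54.1 CPM in WT and at 40, 26.5 and 33.7 CPM in 5xFAD. Both knockout groups lay above both groups with intact Irf8 without overlap. The log2 fold change was 2.02 (SE 0.417, adjusted p = 0.00367) in IRF8KO over WT and 2.71 (SE 0.428, adjusted p = 0.000656) in 5xFAD/IRF8KO over 5xFAD. Both calls held under all 14 alternatives run for each. The interaction for this gene was 0.69 (SE 0.57, adjusted p = 0.662). In 5xFAD over WT, Hsp90aa1 had a log2 fold change of -1.2 (SE 0.411, adjusted p = 0.214).

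Its constitutive relative Hsp90ab1 showed a smaller difference in the same direction. It stood at 491, 420 and 617 CPM in 5xFAD/IRF8KO against 308, 247 and 289 CPM in 5xFAD, a log2 fold change of 0.86 (SE 0.264, adjusted p = 0.0296). The groups did not overlap, but leaving out any 5xFAD library or 5xFAD/IRF8KO replicate 1 or 3 ended the call. In IRF8KO it stood at 623, 641 and 715 CPM against 552, 414 and 263 CPM in WT, a log2 fold change of 0.75 (SE 0.263, adjusted p = 0.0512). Including the copies, 4 members rose in 5xFAD/IRF8KO over 5xFAD and none fell, beside 18% of 14604 tested genes called higher and 27.8% in either direction. Markers of other cells rose with Hsp90aa1 between the same groups. In both knockout comparisons 15 of 15 neutrophil, 9 of 9 red blood cell and 9 of 9 neuron genes were called higher. Oligodendrocyte genes were higher in 8 of 9 and 7 of 9, and astrocyte genes in 8 of 8 and 7 of 8. The neuron list took 0.0668, 0.17 and 0.323% of counts in the IRF8KO libraries with 159, 309 and 445 CPM of Hsp90aa1, and 0.08, 0.0447 and 0.169% in the 5xFAD/IRF8KO libraries with 195, 150 and 309 CPM. The order of the libraries was the same for both measures within each of these groups of 3 libraries. In the same IRF8KO libraries oligodendrocyte genes took 1.12, 0.85 and 0.741%, in the reverse order. At 3 months the orders differed: WT libraries with 0.0399, 0.0481, 0.0567 and 0.0809% of neuron genes held 204, 162, 121 and 215 CPM. The 3-month IRF8KO library with the lowest share, 0.00674%, had the highest Hsp90aa1 level, 86.4 CPM. In 9-month WT and 5xFAD the neuron list took at most 0.000661%. The part of these cells in the result was not tested.

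The remaining members were not called in any 9-month comparison. Hspa5 had log2 fold changes between -0.28 and 0.12 in the 4 comparisons of genotypes, and Hspa8 between 0.04 and 0.47. Dnajb1 stood at 160, 65.8 and 62.5 CPM in the IRF8KO libraries, and the WT libraries held 218, 132 and 113 CPM, with a log2 fold change of -0.62 (SE 0.369, adjusted p = 0.23). Replicate 1 was the highest library in both groups, and the groups overlapped. Hsph1 stood at 14.6, 58.2 and 64.5 CPM in 5xFAD/IRF8KO against 18.4, 12.7 and 19.2 CPM in 5xFAD, with a log2 fold change of 1.46 (SE 0.603, adjusted p = 0.0912). Hspd1 stood at 83.6, 82.7 and 63.3 CPM against 50.7, 32.9 and 37 CPM in the same comparison. Those groups did not overlap, yet the log2 fold change of 0.93 (SE 0.326) had an adjusted p of 0.0512. Hspb1 reached 5.13 CPM at most at 9 months and held 1 read over the 3 5xFAD libraries.

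**Figure D3:**
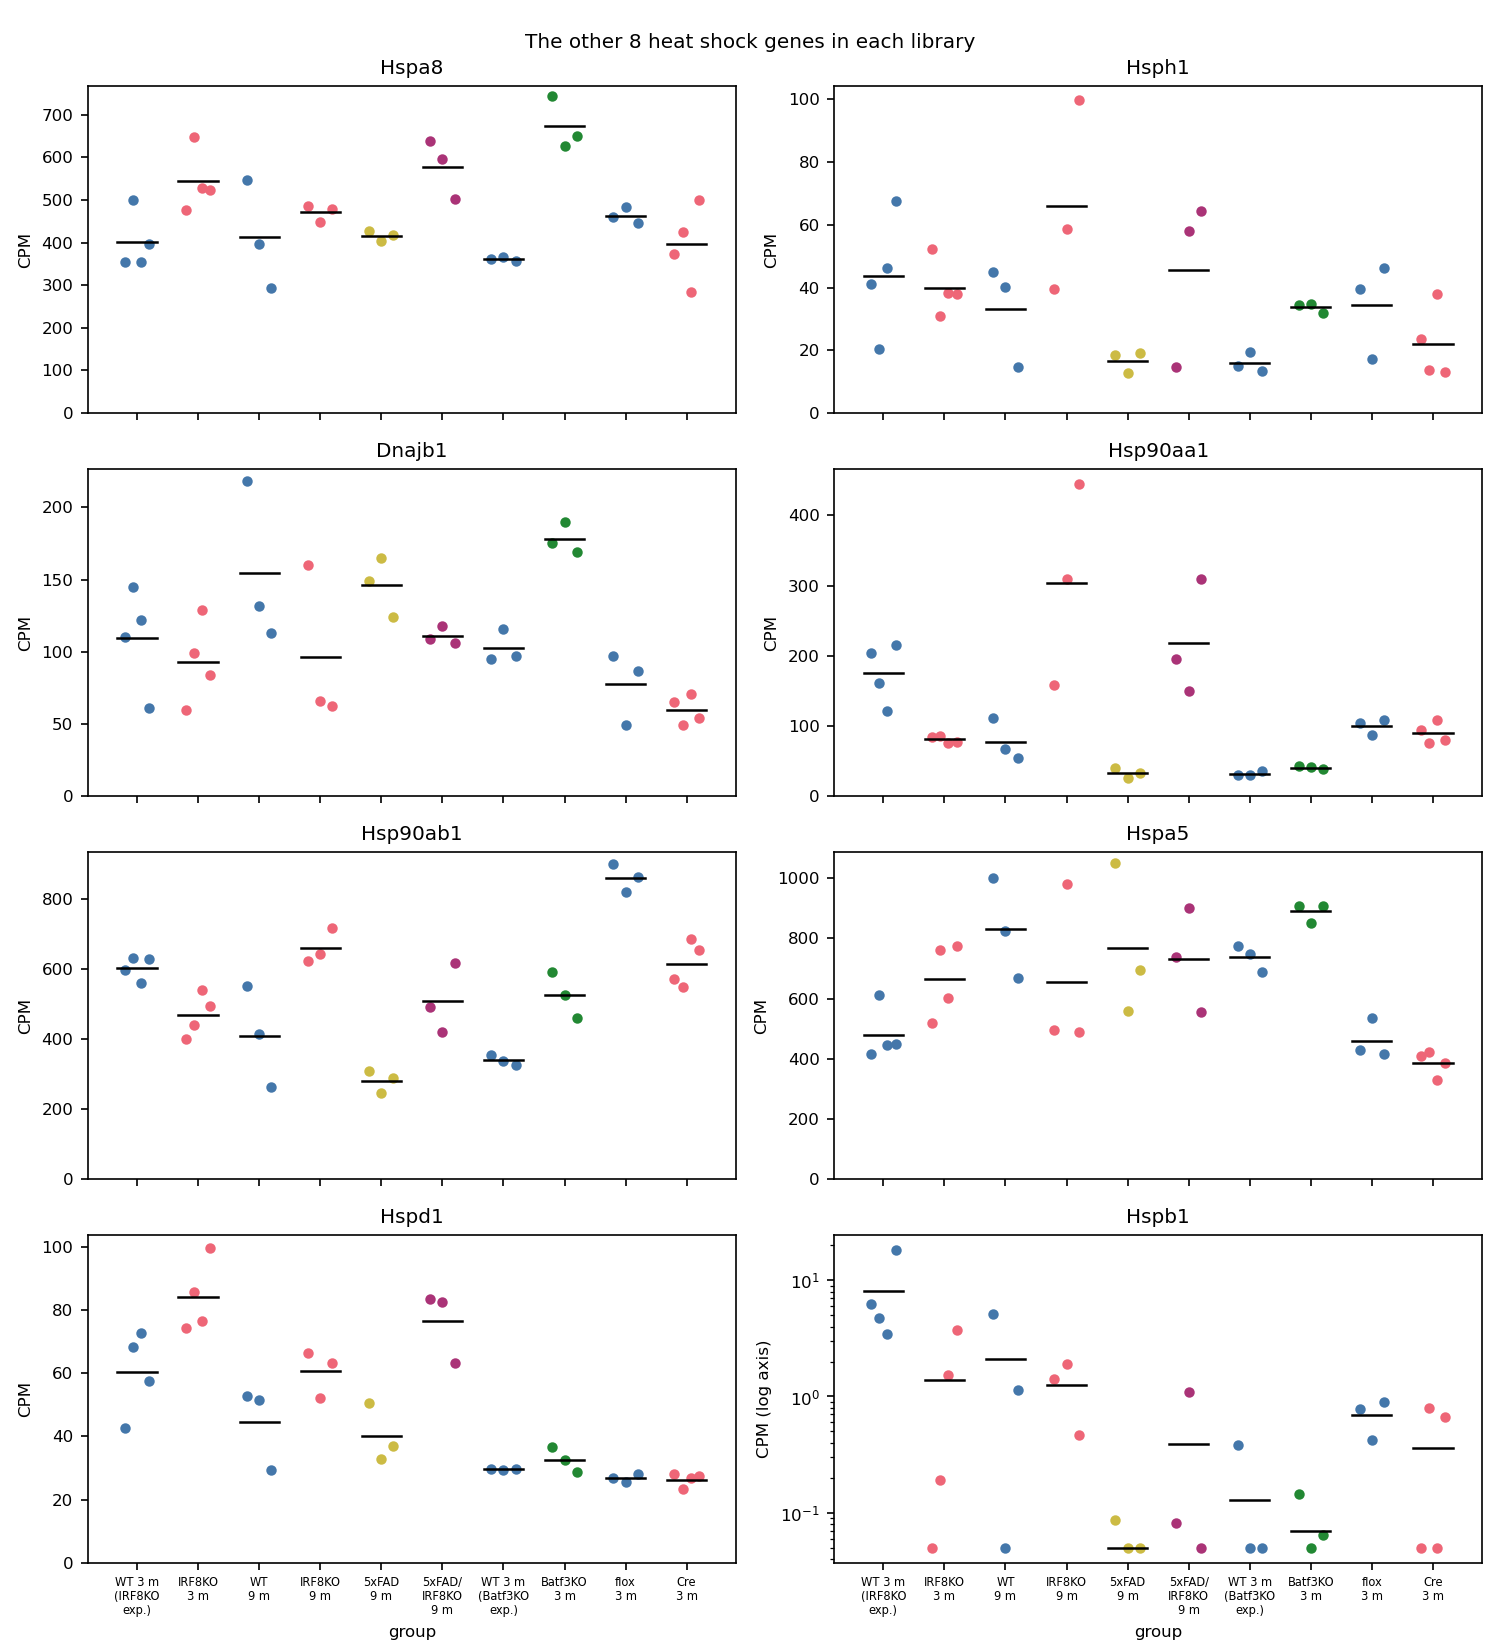
CPM of the other 8 heat shock genes in each of the 33 libraries (points) with group means (bars), on linear axes from 0 except for Hspb1, whose axis is logarithmic with values under 0.05 CPM drawn at 0.05. Hsp90aa1 reaches 445 CPM in 9-month IRF8KO and stays at 26.5 to 40 CPM in 5xFAD, and Hspa8 is highest in Batf3KO, from 626 to 744 CPM.

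Among the 98 other chaperones, the IRF8KO comparison at 9 months had 7 higher and 7 lower of 91 tested, beside 19.6% of all tested genes called higher and 8.68% called lower. Hspa4l, an HSP110 relative of Hsph1, rose from 5.76 ± 1.15 to 111 ± 40.4 CPM (log2 4.29, adjusted p = 0.000107). Cryab, the small heat shock protein alpha-B crystallin, which oligodendrocytes and astrocytes express strongly, rose from 0.996 ± 1.15 to 93.5 ± 15.4 CPM (log2 6.46, adjusted p = 0.000139). A list of 9 oligodendrocyte genes took 0.741 to 1.12% of counts in IRF8KO and 0.0237 to 0.0273% in WT, and its part in the Cryab result was not tested. Among genes that fell were Dnajc7, by 1.08 (adjusted p = 0.0156), and the ER gene Creld2, by 1.93 (adjusted p = 0.042). In 5xFAD over WT, 4 of 90 rose and none fell, among them the ER genes Sdf2l1 (126 ± 22.4 to 359 ± 17.3 CPM, adjusted p = 0.0354) and Manf (50.1 ± 5.39 to 115 ± 12.7 CPM, adjusted p = 0.0492), beside 1.81% of all tested genes called higher. In 5xFAD/IRF8KO over 5xFAD, 6 rose and 10 fell of 91, beside 9.72% of all tested genes called lower. Herpud1, which acts in ER-associated degradation, fell by 2.26 (adjusted p = 0.000115) and Sdf2l1, a partner of Hspa5, by 2.04 (adjusted p = 0.00074), while Hspa5 itself had a log2 fold change of -0.06 (SE 0.329, adjusted p = 0.909). Hsf1 stood at 88.9 to 102 CPM in 9-month WT and 0.411 to 32.5 CPM in IRF8KO without overlap, with a log2 fold change of -2.31 (SE 1.06, adjusted p = 0.124).

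At 3 months, 1 of the 10 genes changed in IRF8KO against WT, beside 7.39% of 13121 tested genes (970 genes, and 305 to 501 without 1 of the IRF8KO libraries). Hsp90aa1 stood at 84.2, 86.4, 76 and 77.2 CPM in IRF8KO and at 204, 162, 121 and 215 CPM in WT. All IRF8KO libraries were lower, the reverse of the order at 9 months. The neuron list was lower as well, with 4 of 9 genes called, a median log2 fold change of -1.81, and 0.00674 to 0.0448% of counts in IRF8KO against 0.0399 to 0.0809% in WT. Neutrophil genes were higher in 7 of 15 and monocyte and border macrophage genes in 2 of 9, and the part of these cells in the result was not tested. The log2 fold change was -1.15 (SE 0.303, adjusted p = 0.039), and the call was lost when WT replicate 1, 2 or 4 or any 1 IRF8KO library was left out, with an adjusted p of at most 0.121. The sum of Hspa1a and Hspa1b stood at 24.8, 32.4, 141 and 48.5 CPM in IRF8KO and at 97.2, 113, 87.4 and 2.49 CPM in WT. WT replicate 4 held no Hspa1b read and 18 Hspa1a reads, so it lay below every IRF8KO library while the other 3 WT libraries lay above all but 1 of them. The log2 fold change was -0.31 (SE 0.795, adjusted p = 0.855), and -0.72 without that library (adjusted p = 0.438).

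None of the 3 most abundant members passed the test at 3 months. Hsp90ab1 stood at 401, 441, 539 and 493 CPM in IRF8KO and at 596, 630, 559 and 629 CPM in WT. Every IRF8KO library was lower, but the log2 fold change of -0.39 (SE 0.282) had an adjusted p of 0.443. In CPM without TMM the groups overlapped, with 536 in IRF8KO replicate 3 and 497 in WT replicate 1. Hspa8 stood at 476, 647, 528 and 522 CPM against 355, 500, 354 and 396 CPM (log2 0.42, SE 0.293, adjusted p = 0.433), and Hspa5 at 518, 760, 603 and 776 CPM against 417, 612, 445 and 449 CPM (log2 0.45, SE 0.307, adjusted p = 0.419). For both genes the highest WT library, replicate 2, lay above the lowest IRF8KO library, so the groups overlapped.

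Hspd1 stood at 74.5, 85.9, 76.5 and 99.9 CPM in 3-month IRF8KO and 42.6, 68.5, 72.7 and 57.6 CPM in WT, with a log2 fold change of 0.46 (SE 0.296, adjusted p = 0.38). Its head-to-head neighbour and partner Hspe1 fell by 1.5 on the log2 scale (100 ± 41.1 to 36.2 ± 4.15 CPM, SD, n = 4 each, adjusted p = 0.0252). The difference between these genes was not tested. They share 112 exon bases, and for Hspd1 42.3% of transcript windows also occur in other genes. Hspb3, a small heat shock protein known from muscle, was at 26.4 to 88.4 CPM in WT and 0 to 1.68 CPM in IRF8KO (adjusted p = 0.00606). Fkbp5, an HSP90 cochaperone induced by glucocorticoids, rose from 44.7 ± 26.1 to 224 ± 68.9 CPM (log2 2.29, adjusted p = 0.0118), and with the ER gene Edem1 (log2 1.28, adjusted p = 0.0259) these were the 2 higher and 2 lower of 91 other chaperones tested, beside 4.15% of all tested genes called higher and 3.24% called lower. Hspb1 stood at 0, 0.19, 1.54 and 3.77 CPM in the IRF8KO libraries, and the WT libraries held 6.24, 4.7, 3.47 and 18.1 CPM, with an adjusted p of 0.233.

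The effect of IRF8KO differed between the ages in 4 members, beside 24% of 15512 tested genes. For Hsp90aa1 the effect at 9 months minus that at 3 months was 3.26 (log2, SE 0.533, adjusted p = 0.000315), and the call held under all 21 alternatives. For Hsp90ab1 it was 1.22 (SE 0.399, adjusted p = 0.0343), a call lost in 7 of 21 alternatives. For the sum of the copies it was -6.72 (SE 1.3, adjusted p = 0.00128), with adjusted p-values of 0.0375 for Hspa1a, lost in 8 of 20 alternatives, and 0.000589 for Hspa1b. The sign for Hsp90aa1 rests on its controls as well as on the knockouts: WT stood at 121 to 215 CPM at 3 months and 54.1 to 112 CPM at 9 months. Age and experiment cannot be told apart here. WT of the 3-month IRF8KO experiment held neutrophil and red blood cell genes that 9-month WT lacked, and their part in the result was not tested.

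**Figure D4:**
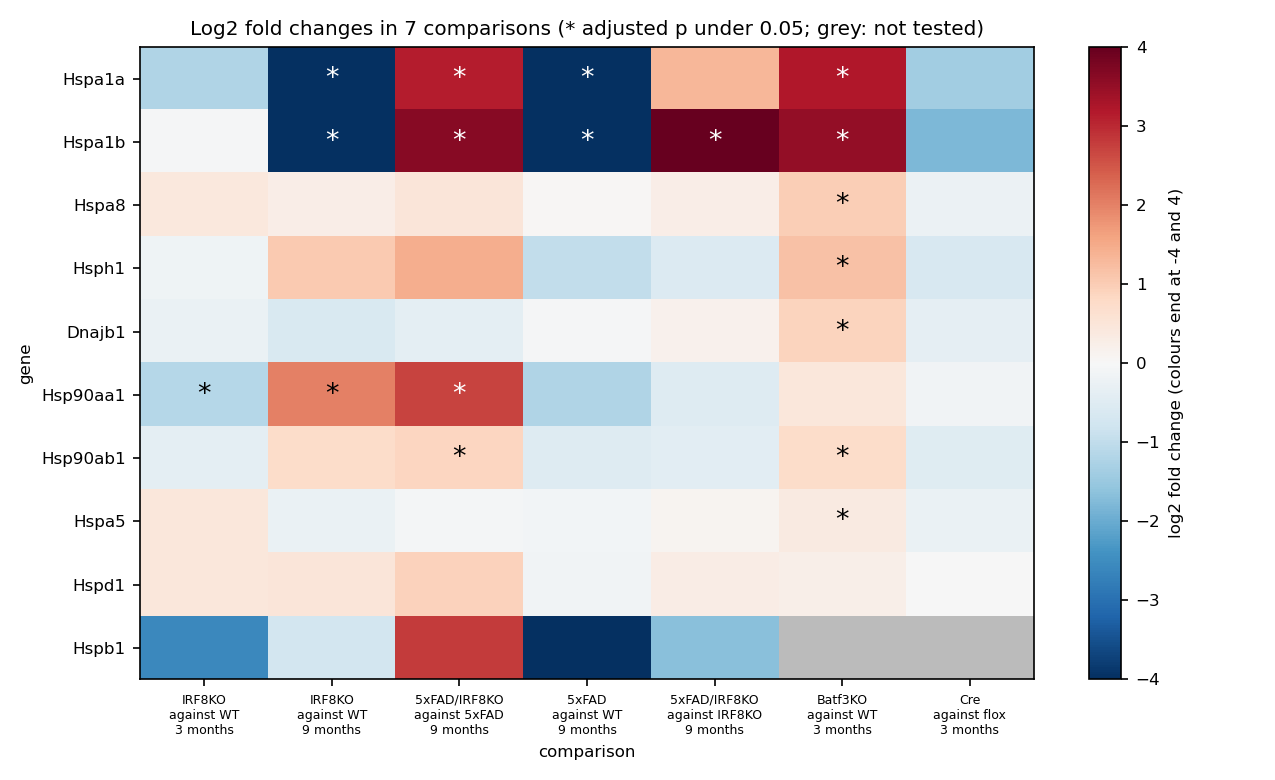
Log2 fold changes of the 10 heat shock genes (rows) in 7 comparisons (columns), coloured from blue (lower in the first-named group) to red (higher), with colours ending at -4 and 4, asterisks for adjusted p under 0.05 and grey for genes not tested. Batf3KO is the column with 7 asterisks, all red, and the Cre column has none.

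In the conditional deletion no member was called, beside 0% of 15512 tested genes in edgeR's quasi-likelihood test. At an unadjusted p under 0.05 there were 1407 genes, among them Hspa1b and Hsp90ab1. DESeq2 called 164 genes and limma voom 257, with 0 members in each. Hspa1b stood at 4.34, 0.494, 4.71 and 1.04 CPM in Cre and 10.5, 4.84 and 12.2 CPM in flox. The groups did not overlap in these levels, and the log2 fold change was -1.8 (SE 0.588, adjusted p = 0.327). In CPM without TMM they did overlap, with 5.35 in Cre replicate 3 and 4.95 in flox replicate 2. Without Cre replicate 1, the library whose Irf8 level lay in the flox range, 952 genes were called and Hspa1b was one of them, with a log2 fold change of -2.15 (adjusted p = 0.018), and the sum of the copies passed as well (log2 -2.06, adjusted p = 0.0235). Its level in the left-out library, 4.34 CPM, was close to that of Cre replicate 3. Hsp90ab1 stood at 571, 548, 685 and 652 CPM in Cre and 899, 818 and 861 CPM in flox, the highest group of the study for this gene. Those groups did not overlap, with a log2 fold change of -0.48 (SE 0.162, adjusted p = 0.345). Hsp90aa1 stood at 94.2, 76.5, 108 and 80.3 CPM against 105, 87.6 and 108 CPM, with a log2 fold change of -0.15 (SE 0.174, adjusted p = 0.912). Hspa5 and Hspa8 overlapped between Cre and flox, with log2 fold changes of -0.25 (SE 0.169) and -0.23 (SE 0.192), and so did Hspd1 at -0.03 (SE 0.165). The fitted log2 fold change was above 0 for 0 of the 9 tested members and for 51.8% of all tested genes, with a median of -0.37 over the members. The difference between the Cre effect and the 3-month IRF8KO effect was called for 0 members, beside 7.04% of 17361 tested genes, and for Hsp90aa1 it was 1.06 (SE 0.327, adjusted p = 0.0589).

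Some of the genes also differed between WT libraries of the 2 experiments at the same age. In WT of the IRF8KO experiment over WT of the Batf3KO experiment, 7 members were called higher and none lower, beside 26.5% of 14621 tested genes called higher, 16.3% called lower and 42.8% called in either direction. Without any 1 WT library of the Batf3KO experiment, 4 members and 3908 to 3995 genes of 6254 were called. The sum of the copies had a log2 fold change of 6.9 (SE 1.17, adjusted p = 0.00151), Hsp90aa1 one of 2.85 (SE 0.339, adjusted p = 0.000307) and Hspb1 one of 6.26 (SE 1.48, adjusted p = 0.00765). Hspa5, Hspa8 and Dnajb1 were not called, at -0.22, 0.54 and 0.48. The levels of Hspa5 did not overlap, with means of 481 and 737 CPM. Levels were scaled over all 33 libraries and fold changes within the comparison, so their sizes can differ. Hsf1 was lower by 1.75 (39.7 ± 11.9 against 175 ± 8 CPM, adjusted p = 0.00185), while the genes of the copies were higher. The experiment and whatever differed in isolation, sex and cell mixture cannot be told apart in this comparison.

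Where the pair held many reads, Hspa1b gave more of them. In the 16 libraries with at least 100 reads of the pair, Hspa1b took 58.5 to 86.9% of them, with a median of 76%, and it exceeded Hspa1a in all 16. Libraries with fewer reads varied more. Hspa1b took 0% in replicate 4 of 3-month WT (IRF8KO experiment) and in replicates 1 and 2 of 9-month IRF8KO, with 18, 19 and 27 Hspa1a reads. In replicate 3 of 9-month IRF8KO it took 22.2%, and in the other libraries under 100 reads 33.3 to 87.5%. The promoters printed above, equal at all but 3 of 250 positions, go with unequal counts, and how far shared transcript sequence sets that share was not tested. Across the 10 group means, the non-member genes most like Hspa5 and Hspd1 were found by rank among 7061 genes with at least 5 CPM in every group. For Hspa5, Ube2j1 came first with a Spearman rho of 0.988, followed by Cacul1 and Aftph, and for Hspd1 the first were Ankrd40 and Usp1, both with 0.988, and Hnrnpa2b1. The 10 means share experiments, depth and cell mixture, so these values describe the groups only.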

How the data were processed

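Microglial RNA of 33 mouse libraries was measured by SMART-Seq v4 and Nextera XT libraries read as paired ends of 55 bases, per the labels' protocols. The authors deposited raw read counts per gene, with 1 unstranded and 2 stranded columns per library. The unstranded counts were used, since each strand held close to an equal share (49.5 to 50.1%). The submitters' processing notes name bcl2fastq, STAR 2.5.2b, Picard 2.17.11, Subread, featureCounts and mm10, with no roles. Lines that name no gene (unmapped, multimapping, no feature, ambiguous) held 21.4 to 52.7% of each library's reads, multimapping alone 4 to 35.4%, and were left out. Gene names and coordinates come from GENCODE M21 (GRCm38), which matched 52480 of 54146 identifiers with version and 54079 without.

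Each comparison was fitted with edgeR 4.0.16 (filterByExpr, TMM, quasi-likelihood test, Benjamini-Hochberg adjustment), the 9-month groups in one model. SEs were computed from the log2 fold change and the F statistic. Levels are CPM. The scripts were tested on simulated counts. Alternatives were DESeq2-type size factors, DESeq2 1.42.0, limma 3.58.1 voom with quality weights, no filter, a replicate block, single libraries left out, only the compared groups at 9 months, all 33 libraries in one model, and CPM without TMM or without genes of other cell types.

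The members and all gene lists were chosen with earlier results of these data known. Named genes are the 10 members, Hsf1, Irf8, Batf3 and, of each other chaperone list, at most 2 called genes per direction, by size of change (with 5 CPM or above as the higher of both group means), and the 3 genes most like 3 members, of which those for the sum of the copies are not reported here. Examples were taken from these. Of the immediate early list, counts and shares were planned, and Klf2, Rhob, Zfp36, Jun, Fos, Dusp1, Fosl2, Egr3 and Nr4a1 were named after their values were seen. No 2 libraries of a group agreed within sampling noise. Intervals of ratios are exact and cover counting error only.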

Additional observations from a re-analysis of the deposited data

Results flagged for a closer look

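In groups of 4 libraries, 2 of 33 sets of values held a library far from the others by Dixon's test, which chance does in about 1 in 20 sets. Hspa1b in 3-month WT of the IRF8KO experiment had a gap of 0.873 of the range, because replicate 4 held no read of it. Hspa5 in the same group had a gap of 0.833, where replicate 2 was the highest at 612 CPM.

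Effects differed between groups in a test of the difference itself for these genes. The IRF8KO effect depended on the 5xFAD background at 9 months for Hspa1a (adjusted p = 0.0404), Hspa1b (adjusted p = 0.0107) and their sum (adjusted p = 0.0143). It differed between 9 and 3 months for Hspa1a (adjusted p = 0.0375), Hspa1b (adjusted p = 0.000589), their sum (adjusted p = 0.00128), Hsp90aa1 (adjusted p = 0.000315) and Hsp90ab1 (adjusted p = 0.0343). Over all tested genes, 0.438% were called in the interaction and 24% between the ages. The interaction call for Hspa1a was lost in 9 of 18 alternatives. The calls between ages were lost in 8 of 20 alternatives for Hspa1a and 7 of 21 for Hsp90ab1.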

How the results depend on the processing

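Of 842 values under alternatives that kept all libraries, 760 kept their direction and side of the threshold, and 33 lost and 29 gained a call. No called value turned in sign, but 19 values that were called in neither fit did, and 53 more with 1 library left out. Among them, with voom quality weights, Hspa1b and Hsph1 in IRF8KO against WT at 3 months went from -0.06 to 0.57 and from -0.16 to 0.22, and Hspb1 at 9 months from -0.72 to 0.58. Numbers of members called that moved by over 1.5 times were as follows, and the cause was not tested. With voom quality weights they were 1 (from 3) in IRF8KO against WT and 5 (from 2) in 5xFAD against WT at 9 months, where the genes called over the whole transcriptome also went from 290 to 3821, 2 (from 4) in 5xFAD/IRF8KO against 5xFAD, 0 (from 1) against IRF8KO, 0 (from 2) in the interaction and 2 (from 4) between ages. In the others, the genes called in all went from 4136 to 4620, from 4054 to 4367, from 24 to 0, from 64 to 11 and from 3717 to 3973, in this order. With all 33 libraries in one model they were 5 for IRF8KO at 9 months, 7 for 5xFAD/IRF8KO against 5xFAD and 0 (from 7) for Batf3KO. The genes called in all were then 6836 (from 4136), 6783 (from 4054) and 10 (from 503). With only the 2 groups compared they were 5 for 5xFAD against WT, where 4546 genes (from 290) were called in all, and 0 for 5xFAD/IRF8KO against IRF8KO, where 0 genes (from 24) were. DESeq2 gave 7 for 5xFAD/IRF8KO against 5xFAD and 1 (from 0) for Cre against IRF8KO effects, and no filter gave 1 (from 0) for Cre against flox. There the genes called in all were 5059 (from 4054), 2162 (from 1223) and 618 (from 0). The replicate numbers were not used to pair the libraries in the main fits. Same-numbered pairs had correlations of at most 0.167, and in every comparison of 2 groups at least 1 lay under 0.1. Pairs of different numbers were not compared, so these values cannot exclude pairing. With the replicate block the numbers were 0 (from 1) for IRF8KO at 3 months, 0 for 5xFAD/IRF8KO against IRF8KO, 1 for the interaction and 2 between ages. The genes called in all were then 988 (from 970), 0 (from 24), 9 (from 64) and 2965 (from 3717). For Batf3KO 216 (from 503) genes were called, and Hspa5 lost its call.

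Leaving out single libraries gave 0 to 1 members for IRF8KO at 3 months, 0 (from 2) for 5xFAD against WT, 2 to 4 for IRF8KO against WT at 9 months, 5 to 7 for Batf3KO, 1 to 4 for 5xFAD/IRF8KO against 5xFAD, 0 to 1 against IRF8KO, 0 to 2 in the interaction, 2 to 4 between ages, 4 to 8 for WT against WT, 0 to 1 for Cre against flox and 0 to 1 for Cre against IRF8KO effects. The genes called in all moved too. In the same order they were 305 to 1128, 2 to 102, 2266 to 4126, 219 to 596, 2325 to 4055 and 38 to 140. From the interaction on they were 2 to 189, 2191 to 4053, 3908 to 6529, 0 to 952 and 471 to 1780. Of 220 group means recomputed without TMM or without other cells' genes, 46 moved by more than 1 SD. Depth limits Hspb1 and, in WT of the Batf3KO experiment and 9-month IRF8KO, Hspa1a and Hspa1b.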
